A study of Mus musculus with 8 samples.

Results

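Expression of 10 AP-1 and immediate early genes was followed across the 4 groups of a mouse embryonic stem cell (ESC) array series. The genes were Jun, Junb, Jund, Fos, Fosl1, Fosl2, Atf3, Egr1, Ier2 and Ier3, and they were read from the 14 probe sets whose only gene symbol was one of these names. Of the 10 genes, 9 passed the expression minimum through 11 probe sets, out of 11940 tested genes among 18193 with a probe set of their own. Fosl1 stayed under the minimum on all 8 arrays. The cells were V6.5 ESCs, an established mouse line, kept in medium with LIF, and every group carried a lentivirus with a constitutive shRNA against mouse Wdr5. The same vector held a doxycycline-inducible human WDR5, either wild type (WT) or with the F266A substitution in its RNA-binding cleft. WDR5 is an adaptor subunit of complexes that methylate histone H3 at lysine 4. Sorted GFP-positive cells were grown with 2 µg per mL doxycycline (WT +dox and F266A +dox) or without it (WT -dox and F266A -dox), and each group had 2 arrays of total RNA described as biological duplicates. No group had its own Wdr5 mRNA untouched. Withdrawal of WT WDR5 or of F266A, as worded below, means growth of that line without doxycycline. No cells without an inducible WDR5 were given the drug, so its own effects cannot be told apart from those of withdrawing WDR5. A single line of each kind was described, so that differences between WT and F266A cells cannot be told apart from other differences between these lines. The study reported equal RNA of both transgenes but less F266A than WT protein. The induced groups may thus differ in the amount of WDR5 as well as in its form.

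AP-1 is a dimeric transcription factor built from JUN and FOS family proteins, which pair through a leucine zipper and bind DNA through an adjoining basic region. ATF3 belongs to the same bZIP class and pairs with JUN proteins. Many of these genes, like Egr1, Ier2 and Ier3, are immediate early genes, which are transcribed within minutes of a growth factor, stress or adhesion signal without new protein synthesis, largely through MAP kinases and the factors SRF and ELK. In ESCs, FGF4 secreted by the cells themselves keeps ERK, one of these MAP kinases, active.

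With both transgenes induced, 6 of the 9 measured genes were higher in F266A +dox than in WT +dox: Jun, Junb, Fosl2, Atf3, Egr1 and Ier3. Fosl2 lay under the minimum on all 4 WT arrays, and its call rested on probe set 1437247_at. With a minimum of 100 on the linear scale, which Fosl2 did not reach, 5 of 8 genes were higher. By limma, 15.9% of all tested genes were higher in this comparison and 12.5% were lower. None of the 9 was lower, although 1 (Jund) had an unadjusted p under 0.05 in that direction. Fos and Ier2 were not called, and their 95% intervals lay within -0.17 and 0.15. The median difference over the 9 genes was 0.64 on the log2 scale, beside 0.00 over all tested genes. These genes and the lists below were chosen with earlier results of these data known, so their counts and medians are descriptions. In bulk RNA, a change in the share of cells that express a gene and a change per cell cannot be told apart. All levels below are log2 RMA values of single arrays, replicate 1 before replicate 2, and all differences are log2 differences ± SE between groups of 2 arrays, with adjusted p from limma over all 11940 genes. Where groups are said not to overlap, the arrays of 2 groups lay wholly apart in 59.8% to 74.8% of all tested genes, depending on the comparison.

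**Figure D1:**
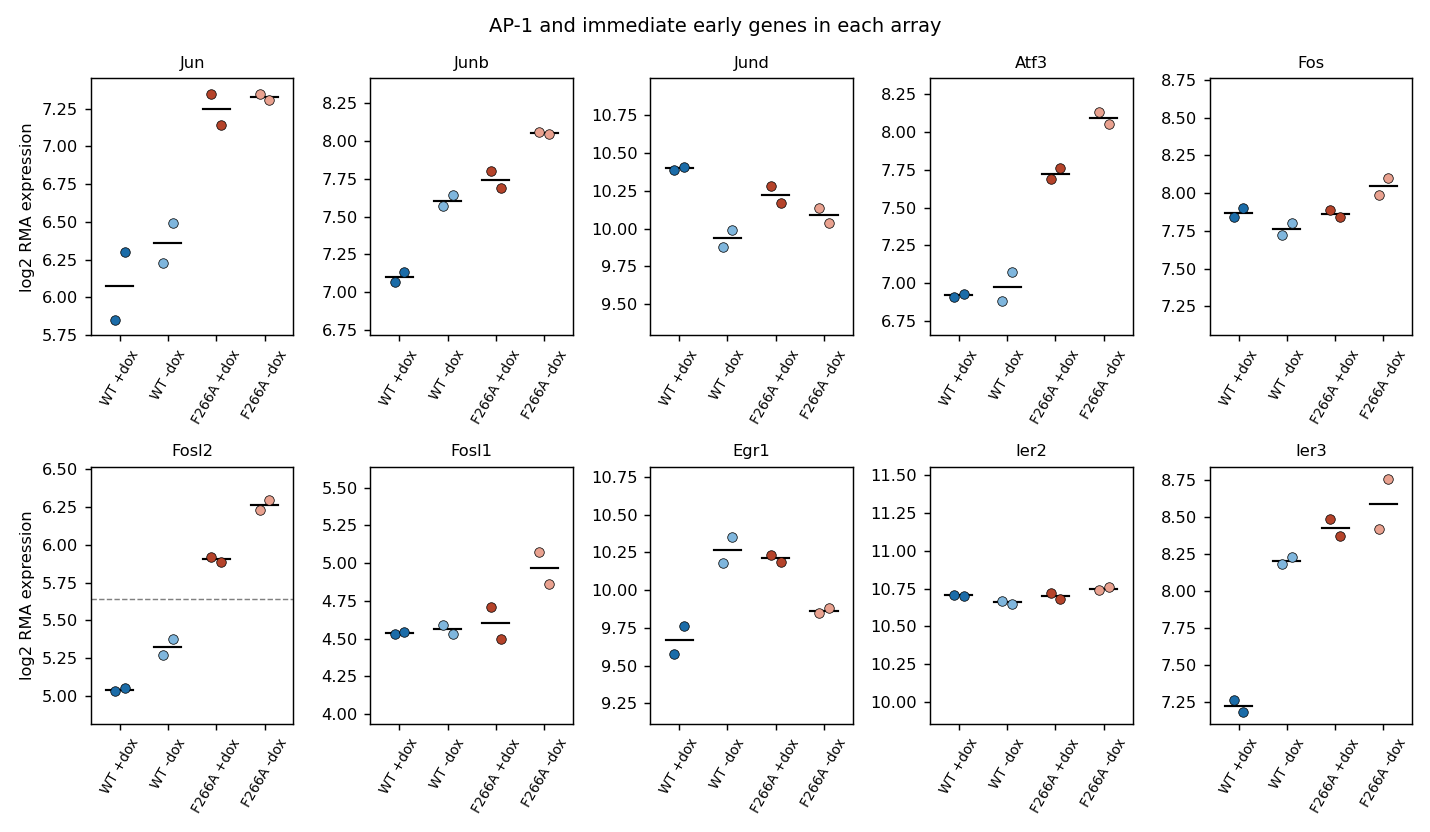
Log2 RMA expression (vertical axis, separate range in each panel) of the 10 genes in the 4 groups, with a point for each array, a bar for the group mean and, where it falls in range, a dashed line at the expression minimum of 5.64. Jun and Atf3 separate the lines, Junb and Ier3 are lowest in WT +dox, and all Ier2 arrays lie between 10.65 and 10.76.

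The arrays carried the profile of ESCs. All 12 ESC markers exceeded the minimum in every group, and their summed linear level lay between 62165 and 62721 on WT +dox, 59129 and 60184 on WT -dox, 56768 and 56837 on F266A +dox and 48653 and 51036 on F266A -dox. Of 12 fibroblast markers, 3 passed the minimum, and their summed level over the whole list was 1127 to 1190 on WT +dox, 1550 to 1659 on WT -dox, 3590 to 3904 on F266A +dox and 4250 to 5321 on F266A -dox, mostly through Tagln, a smooth muscle actin-binding protein, at 9.57 to 9.67 on WT +dox and 11.93 to 12.27 on F266A -dox. Of the remaining pair, Fbln1, a matrix glycoprotein, was called lower than in WT +dox in each of the other groups (-0.22 ± 0.06 for F266A +dox, -0.34 ± 0.06 for WT -dox and -0.30 ± 0.06 for F266A -dox). The other, Col1a2, was called higher in F266A -dox than in WT +dox (0.63 ± 0.16, adjusted p = 0.00748) and WT -dox (0.80 ± 0.16, adjusted p = 0.00495). The collagen genes Col1a1 and Col3a1, Dcn, Lum and Pdgfra stayed under the minimum on all arrays. Of the 8 endothelial and blood markers on the array, 4 passed it (not Cdh5 or Ptprc), and the summed level of the 8 was 725 to 761 on WT +dox, 513 to 515 on WT -dox, 458 to 489 on F266A +dox and 414 to 427 on F266A -dox. The 18S ribosomal RNA control read 11.65 and 11.33 on WT +dox, 11.42 and 11.04 on WT -dox, 10.90 and 10.68 on F266A +dox and 9.93 and 9.95 on F266A -dox. These lists and the 18S control move along the same order of groups as the means of Jun, Junb, Fosl2, Ier3 and Atf3 below, and their part in those results was not tested. Wdr5 itself read 8.32 to 8.35 on WT +dox, 9.35 to 9.45 on WT -dox, 8.56 to 8.59 on F266A +dox and 9.27 to 9.31 on F266A -dox, with both of its probe sets higher without doxycycline. Whether these probe sets also detect the human transgene is not given in the sources used here, so the readings are not a check of the endogenous mRNA or of the induction. Duplicates correlated at r = 0.9969 or more over all probe sets, and arrays of different groups at 0.9958 or less.

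The DNA just upstream of a start site is where serum and stress signals reach many of these genes, and promoter sequences were at hand for 7 of the 10, from RefSeq on GRCm38.p6. Those of Jun, Junb and Atf3, 3 genes that rose in F266A +dox, are shown with that of Fos, which did not. Each is the 250 bases before the start site, 5′ to 3′ on the gene's strand, and capitals mark a match to a searched motif.
Jun, chr4:95052223-95052472, minus strand: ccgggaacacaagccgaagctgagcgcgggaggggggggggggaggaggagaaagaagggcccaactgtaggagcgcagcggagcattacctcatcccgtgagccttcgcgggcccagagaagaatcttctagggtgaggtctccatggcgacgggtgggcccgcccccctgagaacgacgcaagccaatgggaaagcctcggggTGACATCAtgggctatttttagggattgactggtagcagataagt
Junb, chr8:84978749-84978998, minus strand: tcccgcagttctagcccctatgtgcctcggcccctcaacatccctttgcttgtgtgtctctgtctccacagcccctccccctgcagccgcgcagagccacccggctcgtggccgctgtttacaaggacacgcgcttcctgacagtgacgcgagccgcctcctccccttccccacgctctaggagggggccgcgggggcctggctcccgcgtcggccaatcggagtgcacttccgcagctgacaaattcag
Atf3, chr1:191183334-191183583, minus strand: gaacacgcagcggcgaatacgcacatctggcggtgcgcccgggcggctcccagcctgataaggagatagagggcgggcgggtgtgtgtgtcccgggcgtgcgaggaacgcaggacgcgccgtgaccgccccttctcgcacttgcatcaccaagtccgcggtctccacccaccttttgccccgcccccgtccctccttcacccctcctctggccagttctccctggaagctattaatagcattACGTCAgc
Fos, chr12:85473640-85473889, plus strand: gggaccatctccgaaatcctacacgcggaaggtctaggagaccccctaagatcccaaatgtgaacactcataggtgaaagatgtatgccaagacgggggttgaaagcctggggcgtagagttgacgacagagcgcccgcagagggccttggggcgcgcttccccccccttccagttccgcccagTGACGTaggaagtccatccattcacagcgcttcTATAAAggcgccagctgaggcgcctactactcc
Motifs were searched on both strands: the AP-1 site TGANTCA (in 6.75% of 32851 promoters of this length), the CRE-like site TGACNTCA (7.49%), the CRE core TGACGT (6.47%), the CArG box bound by SRF (1.47%) and the TATA box TATAAA (12.4%). The CRE core can lie inside a CRE-like site. Jun held TGACATCA with its first base at -45 from the start site, a sequence of the kind that JUN and ATF proteins bind. Within its 250 bases Fos held TGACGT at -66 and TATAAA at -33, and DNA farther upstream was not searched for any gene. Atf3 held the CRE core on the opposite strand, read as ACGTCA at -8. Junb, Jund, Fosl2 and Ier3 held none of the 5 in these windows. Thus a CRE-type match was present in promoters of genes that rose and of Fos alike, and no binding was measured.

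Among the JUN proteins, Jun differed between the lines and not detectably with doxycycline. Jun, the founding AP-1 subunit (probe sets 1417409_at and 1448694_at, averaged), read 5.85 and 6.30 on WT +dox, 6.23 and 6.49 on WT -dox, 7.35 and 7.14 on F266A +dox and 7.35 and 7.31 on F266A -dox. The 4 F266A arrays all lay above the 4 WT arrays, while the groups of one line overlapped. Jun was 1.17 ± 0.14 higher in F266A +dox than in WT +dox (2.25-fold, adjusted p = 0.000352) and 0.97 ± 0.14 higher in F266A -dox than in WT -dox (adjusted p = 0.00108). F266A +dox also exceeded WT -dox, by 0.89 ± 0.14 (adjusted p = 0.00378). Withdrawal gave 0.29 ± 0.14 in WT cells (95% interval -0.03 to 0.61, adjusted p = 0.161) and 0.08 ± 0.14 in F266A cells (interval -0.24 to 0.40, adjusted p = 0.723). The WT value depended on an array: without WT +dox replicate 2, the higher of its group, it was 0.51 with an adjusted p of 0.0235. The probe sets gave like differences between the induced lines, 1.29 ± 0.14 for 1417409_at and 1.05 ± 0.18 for 1448694_at.

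Junb, a JUN protein that can oppose JUN at some promoters, followed both line and withdrawal. It read 7.07 and 7.13 on WT +dox, 7.57 and 7.64 on WT -dox, 7.80 and 7.69 on F266A +dox and 8.06 and 8.05 on F266A -dox (probe set 1415899_at). No 2 groups overlapped. Junb rose by 0.51 ± 0.07 on withdrawal of WT WDR5 (adjusted p = 0.00074) and by 0.31 ± 0.07 on withdrawal of F266A (adjusted p = 0.0144). It was 0.64 ± 0.07 higher in F266A +dox than in WT +dox (adjusted p = 0.000201) and 0.45 ± 0.07 higher in F266A -dox than in WT -dox (adjusted p = 0.00154). The neighbouring groups WT -dox and F266A +dox differed by 0.13 ± 0.07 (interval -0.02 to 0.29, adjusted p = 0.247). The rise in F266A cells was not called without F266A +dox replicate 2 (0.26, adjusted p = 0.0913) or without F266A -dox replicate 2 (0.32, adjusted p = 0.0523).

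Jund, the JUN protein that is expressed most steadily in resting cells, was the only measured JUN or FOS gene that fell on withdrawal of WT WDR5. It read 10.39 and 10.41 on WT +dox, 9.88 and 9.99 on WT -dox, 10.28 and 10.17 on F266A +dox and 10.14 and 10.04 on F266A -dox (probe set 1449117_at). WT +dox was highest and WT -dox lowest, with the F266A groups between them. The fall in WT cells was 0.46 (-0.46 ± 0.07, adjusted p = 0.00162), and withdrawal in F266A cells gave -0.14 ± 0.07 (adjusted p = 0.222). The difference of these effects was 0.32 ± 0.10 and was not called (interval 0.09 to 0.56, adjusted p = 0.114). F266A +dox was 0.29 ± 0.07 above WT -dox (adjusted p = 0.0308), a call that was lost on leaving out any of those 4 arrays (0.24 to 0.35, adjusted p between 0.0585 and 0.191). No pair of groups next to each other in this order differed past the threshold. The other probe set of Jund, 1440265_at, read 4.80 to 5.20, under the minimum, and was not averaged in.

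Junb, Jund and Ier2 lie on chromosome 8, whose 652 tested genes had a median difference of 0.09 between F266A +dox and WT +dox, 0.04 on withdrawal in WT cells, 0.12 on withdrawal in F266A cells and 0.15 between F266A -dox and WT -dox. The medians over the chromosomes of the other members lay between -0.05 and 0.02 in every comparison. Junb itself had 0.64, 0.51, 0.31 and 0.45 in the same 4 comparisons, and the part of the chromosome's shift in these values was not tested.

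Among the FOS proteins, Fos showed small differences throughout. Fos, the prototype of the family and a common partner of JUN, read 7.84 and 7.90 on WT +dox, 7.72 and 7.80 on WT -dox, 7.89 and 7.84 on F266A +dox and 7.99 and 8.10 on F266A -dox (probe set 1423100_at). The induced groups overlapped and differed by -0.01 ± 0.07 (interval -0.17 to 0.15, adjusted p = 0.944). Withdrawal gave -0.11 ± 0.07 in WT cells (adjusted p = 0.266) and 0.18 ± 0.07 in F266A cells (adjusted p = 0.102). Fos was called in 1 comparison, 0.29 ± 0.07 higher in F266A -dox than in WT -dox (adjusted p = 0.0155). This call was lost without WT -dox replicate 1 (0.25, adjusted p = 0.103) or F266A -dox replicate 2 (0.23, adjusted p = 0.0939).

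Fosl2 encodes FRA2, a FOS protein without the strong activation domain of FOS, and its probe sets disagreed. Their average read 5.03 and 5.05 on WT +dox, 5.27 and 5.38 on WT -dox, 5.92 and 5.89 on F266A +dox and 6.23 and 6.30 on F266A -dox, with every step of this order called. On that average F266A +dox exceeded WT +dox by 0.86 ± 0.07 (adjusted p = 3.51e-05) and F266A -dox exceeded WT -dox by 0.94 ± 0.07 (adjusted p = 3.03e-05). Most of it came from 1437247_at, with 1.60 ± 0.10 between the induced lines (adjusted p = 2.62e-05), which read 4.32 and 4.51 on WT +dox, 4.79 and 5.03 on WT -dox, 6.04 and 5.99 on F266A +dox and 6.51 and 6.56 on F266A -dox. This probe set passed the minimum only through the F266A arrays, so its WT readings were not shown to exceed background, and the averages in WT cells were under the minimum too. The other, 1422931_at, read 5.60 to 5.75 on WT +dox, 5.74 to 5.75 on WT -dox, 5.78 to 5.80 on F266A +dox and 5.94 to 6.05 on F266A -dox, and taken alone it gave 0.12 ± 0.08 between the induced lines (adjusted p = 0.322). Withdrawal raised the average by 0.28 ± 0.07 in WT cells (adjusted p = 0.0134) and by 0.36 ± 0.07 in F266A cells (adjusted p = 0.00753). Leaving out WT +dox replicate 1 ended the WT call (0.27, adjusted p = 0.062), as did leaving out WT -dox replicate 2 (0.22, adjusted p = 0.11) or taking 1422931_at alone (0.07, adjusted p = 0.561).

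Fosl1, which encodes FRA1, was not tested with the others because neither of its probe sets reached 5.64. The nearest, 1417487_at, read 4.42 and 4.35 on WT +dox, 4.59 and 4.66 on WT -dox, 5.08 and 4.70 on F266A +dox and 5.61 and 5.12 on F266A -dox. The highest single reading was thus in F266A -dox, while 1417488_at stayed between 4.30 and 4.72 in every group. Run without the minimum, the average of both was 0.36 ± 0.09 higher in F266A -dox than in F266A +dox (adjusted p = 0.0475), on signals not shown to exceed background.

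**Figure D2:**
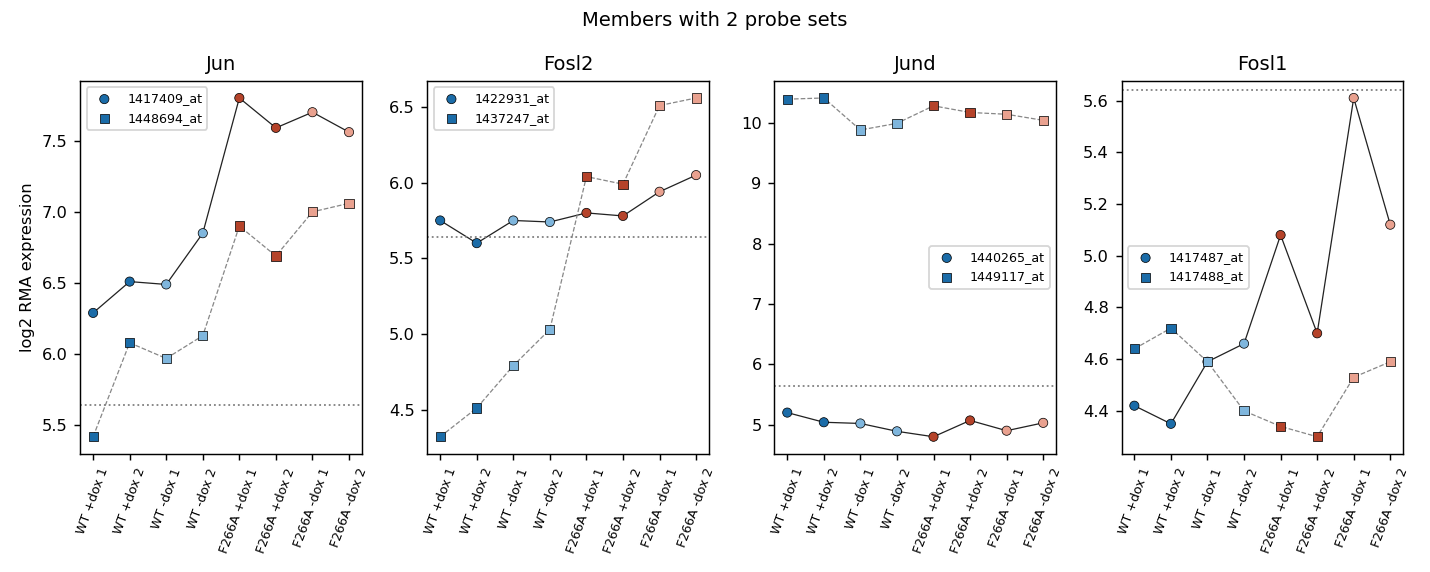
Log2 RMA expression (vertical axis, separate range in each panel) of each probe set of Jun, Fosl2, Jund and Fosl1 in the 8 arrays (horizontal axis), with the minimum of 5.64 dotted and lines joining the points of a probe set only to tell them apart. The pair for Jun runs in parallel, whereas for Fosl2 1437247_at climbs from 4.32 to 6.56 and 1422931_at stays between 5.60 and 6.05.

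Atf3, a stress-induced bZIP factor that often represses its targets, separated the lines as Jun did and rose further on withdrawal of F266A. It read 6.91 and 6.93 on WT +dox, 6.88 and 7.07 on WT -dox, 7.69 and 7.76 on F266A +dox and 8.13 and 8.05 on F266A -dox (probe set 1449363_at). The WT groups overlapped, and both F266A groups lay above them and apart from each other. Atf3 was 0.80 ± 0.08 higher in F266A +dox than in WT +dox (adjusted p = 0.000118) and 1.11 ± 0.08 higher in F266A -dox than in WT -dox (2.16-fold, adjusted p = 2.85e-05). Withdrawal gave 0.05 ± 0.08 in WT cells (interval -0.12 to 0.23, adjusted p = 0.651) and 0.37 ± 0.08 in F266A cells (adjusted p = 0.0128). The difference between these effects, 0.31 ± 0.11, was not called (adjusted p = 0.148). The call in F266A cells was lost without F266A +dox replicate 1 (0.33, adjusted p = 0.0865) or F266A -dox replicate 1 (0.33, adjusted p = 0.0562).

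Egr1, a zinc finger factor and a standard readout of ERK activity, responded to withdrawal in opposite directions in the lines. ERK activity itself was not measured. On withdrawal, Fgf4 was called lower in both lines (-0.37 in WT and -0.53 in F266A cells). Dusp6, listed with the other immediate early genes, was called higher in both (0.90 and 0.49). Egr1 read 9.58 and 9.76 on WT +dox, 10.18 and 10.35 on WT -dox, 10.23 and 10.19 on F266A +dox and 9.85 and 9.88 on F266A -dox (probe set 1417065_at). WT -dox and F266A +dox overlapped at the top, and F266A -dox came next above WT +dox. Egr1 rose by 0.60 ± 0.08 on withdrawal of WT WDR5 (adjusted p = 0.000828) and fell by 0.35 on withdrawal of F266A (-0.35 ± 0.08, adjusted p = 0.0212). The interaction of line and withdrawal was -0.95 ± 0.12 (adjusted p = 0.00469). With the transgenes induced, Egr1 was 0.54 ± 0.08 higher in F266A cells (adjusted p = 0.00144), and without doxycycline it was 0.40 lower in them (-0.40 ± 0.08, adjusted p = 0.00733). The fall on withdrawal of F266A kept its sign but was not called when any of its 4 arrays was left out (-0.37 to -0.32, adjusted p between 0.0669 and 0.117), nor was the difference between the uninduced lines without WT -dox replicate 2 (-0.32, adjusted p = 0.0644). The interaction stayed called under every alternative run.

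Ier3, a small stress-inducible protein that modulates cell survival and ERK signalling, was lowest in WT +dox and rose on withdrawal in WT cells, with an effect that differed between the lines. It read 7.26 and 7.18 on WT +dox, 8.18 and 8.23 on WT -dox, 8.49 and 8.37 on F266A +dox and 8.42 and 8.76 on F266A -dox (probe set 1419647_a_at). The WT +dox arrays stood apart below all others, and the F266A groups overlapped. Withdrawal raised Ier3 by 0.99 ± 0.11 in WT cells (1.98-fold, adjusted p = 0.000196) and gave 0.16 ± 0.11 in F266A cells (interval -0.08 to 0.40, adjusted p = 0.325), with an interaction of -0.83 ± 0.15 (adjusted p = 0.0173). Without replicate 2 of WT +dox this interaction was -0.79 and not called (adjusted p = 0.0524), without replicate 2 of WT -dox it was -0.80 (adjusted p = 0.0579), and without replicate 1 of F266A +dox -0.77 (adjusted p = 0.0853). F266A +dox exceeded WT +dox by 1.21 ± 0.11 (2.32-fold, adjusted p = 5.72e-05). F266A -dox exceeded WT -dox by 0.39 ± 0.11 (adjusted p = 0.025), which fell to 0.21 (adjusted p = 0.14) without F266A -dox replicate 2 and was not called without either WT -dox array (0.36 and 0.41, adjusted p = 0.106 and 0.0761).

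Ier2, a nuclear immediate early protein, was called in no comparison. It read 10.71 and 10.70 on WT +dox, 10.67 and 10.65 on WT -dox, 10.72 and 10.68 on F266A +dox and 10.74 and 10.76 on F266A -dox (probe set 1416442_at). No pair of groups was called, and the 95% intervals of the 6 differences lay within -0.19 and 0.23. The difference between the induced lines was -0.01 ± 0.06 (interval -0.14 to 0.13, adjusted p = 0.961).

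**Figure D3:**
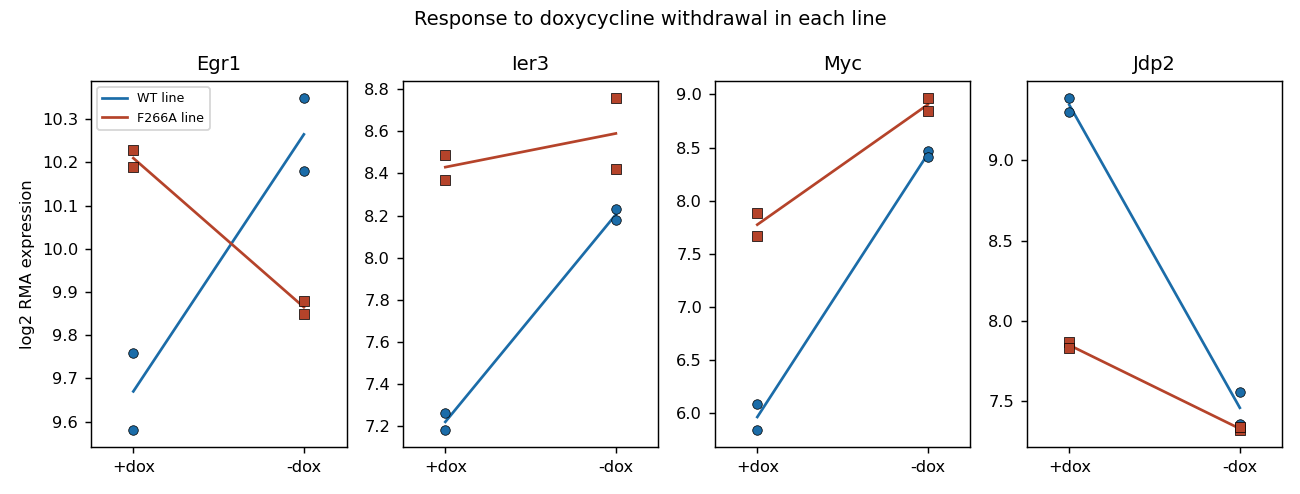
Log2 RMA expression (vertical axis, separate range in each panel) of Egr1, Ier3, Myc and Jdp2 with and without doxycycline, with points for arrays and lines joining the group means of the WT line (blue circles) and the F266A line (red squares). The lines of Egr1 cross, and those of Ier3, Myc and Jdp2 are steeper in WT cells, with interactions of -0.83, -1.35 and 1.36.

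Counted over the 9 measured genes, withdrawal of WT WDR5 raised 4 (Junb, Fosl2, Egr1 and Ier3) and lowered 1 (Jund), beside 16.1% of all tested genes higher and 15.4% lower. Withdrawal of F266A raised 3 (Junb, Fosl2 and Atf3) and lowered Egr1, beside 8.94% and 10.6%. Between the uninduced lines 6 were higher in F266A -dox (Jun, Junb, Fos, Fosl2, Ier3 and Atf3) and 1 lower (Egr1), beside 14% and 13.4%. F266A +dox exceeded WT -dox in 4 (Jun, Jund, Fosl2 and Atf3), beside 9.09%, and in none was it lower, also at an unadjusted p, beside 4.41%. Between F266A -dox and WT +dox, which differ in both line and induction, 5 were higher (Jun, Junb, Fosl2, Ier3 and Atf3) and Jund was lower, beside 25.9% and 25%. The medians over the 9 genes were 0.28, 0.16, 0.39, 0.22 and 0.96 in these 5 comparisons, and over all tested genes each lay between -0.01 and 0.00. Fosl2, under the minimum on the WT arrays, is in each of these 5 counts of higher genes. With a minimum of 100, which it did not reach, 3, 2, 5, 3 and 5 of 8 genes were higher. In the last of these comparisons Fos was then called as well. The interaction was called for 2 of 9, both negative (Egr1 and Ier3), beside 2.94% of all genes, and for none in the other direction by limma (3 at an unadjusted p under 0.05), beside 2.21%. These comparisons share arrays, WT +dox being the reference of 3 of them, so they do not count as separate evidence.

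**Figure D4:**
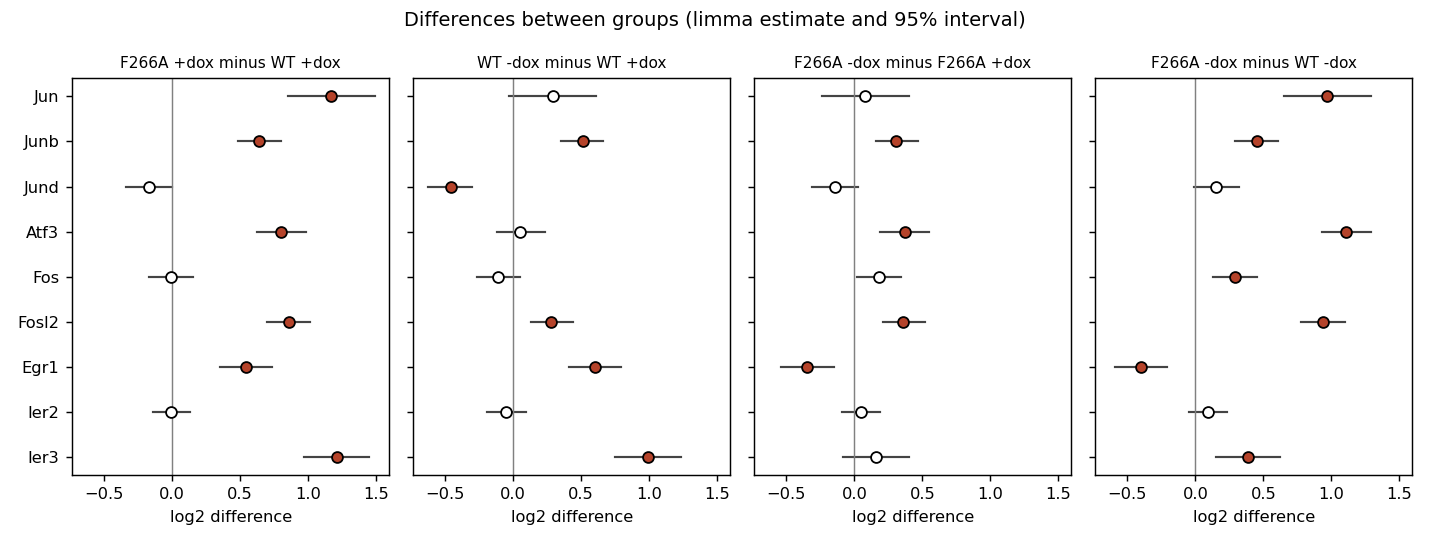
Log2 differences (horizontal axis) of the 9 measured genes in 4 comparisons, with the limma estimate as a point, its 95% interval as a bar, and filled points for adjusted p under 0.05. Jun and Atf3 lie far to the right in both comparisons between lines, and on withdrawal in WT cells Jun stands at 0.29 and Atf3 at 0.05, neither called, whereas Egr1 changes side between the panels.

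Over the 8 arrays, Jun, Fosl2 and Atf3 ran closely together, with Pearson's r of 0.95 between Jun and Fosl2, 0.94 between Jun and Atf3 and 0.98 between Fosl2 and Atf3. Fosl2 entered as the average of its probe sets, which lay under the minimum on all 4 WT arrays, so these 2 values of r rest partly on signals not shown to exceed background. Junb ran closest to Ier3 (0.95), followed by Fosl2 (0.94, with the same limit), Jun (0.88) and Atf3 (0.86). Egr1 ran apart from Fos (-0.43) and Ier2 (-0.58), and Jund ran against Ier3 (-0.65). These are descriptions over 8 arrays that share 4 groups.

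Other bZIP proteins that can pair with or compete against AP-1 subunits were called in both directions. Of 17 such genes 11 were measured. In F266A +dox against WT +dox 1 was higher and 2 were lower (9.09% and 18.2% of the 11, beside 15.9% and 12.5% of all tested genes), with a median of 0.01 beside 0.00 over all genes. On withdrawal of WT WDR5 1 was higher and 2 were lower (beside 16.1% and 15.4%), and on withdrawal of F266A 3 were higher and 1 lower (27.3% and 9.09%, beside 8.94% and 10.6%). Jdp2, which encodes a repressor that pairs with JUN, read 9.30 and 9.39 on WT +dox, 7.36 and 7.56 on WT -dox, 7.87 and 7.83 on F266A +dox and 7.32 and 7.34 on F266A -dox. It was thus high in WT +dox alone, -1.49 ± 0.08 in F266A +dox against WT +dox (adjusted p = 5.43e-06) and -1.89 ± 0.08 on withdrawal of WT WDR5 (adjusted p = 1.89e-06). On withdrawal of F266A it fell by 0.52 (-0.52 ± 0.08, adjusted p = 0.00303), and the interaction was 1.36 ± 0.11 (adjusted p = 0.000714). Bach1, a repressor at AP-1-like sites, fell by 0.66 on withdrawal of WT WDR5 (-0.66 ± 0.10, adjusted p = 0.00105), and Maff, a small MAF protein, rose by 0.47 ± 0.07 there (adjusted p = 0.00135) and by 0.43 ± 0.07 on withdrawal of F266A (adjusted p = 0.00432). Among 9 measured repressors and ubiquitin ligases of JUN, FOS and EGR1, a list that also holds Jdp2, 3 were higher and 1 lower in F266A +dox against WT +dox (33.3% and 11.1%, beside 15.9% and 12.5%). The higher ones were led by Nab1, a corepressor of EGR proteins (0.39 ± 0.08, adjusted p = 0.00601), and Fbxw7, part of a ligase that degrades JUN (0.31 ± 0.08, adjusted p = 0.0216).

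Calls among the kinases and factors upstream went in both directions too. Of 19 measured MAP kinases, their activators and ternary complex factors, 3 were higher and 1 lower in F266A +dox against WT +dox (15.8% and 5.26%, beside 15.9% and 12.5% of all tested genes). On withdrawal of WT WDR5 4 were higher and 2 lower (21.1% and 10.5%, beside 16.1% and 15.4%), and on withdrawal of F266A 1 and 3 (5.26% and 15.8%, beside 8.94% and 10.6%). The medians were -0.03, -0.03 and 0.00. Elk3, a partner of SRF, read 5.83 to 5.90 in the 4 WT arrays, 6.43 and 6.61 on F266A +dox and 6.10 and 6.12 on F266A -dox. It was highest in F266A +dox, 0.64 ± 0.07 above WT +dox (adjusted p = 0.000288), and fell by 0.41 on withdrawal of F266A (-0.41 ± 0.07, adjusted p = 0.00589). Srf itself was 0.40 ± 0.09 higher in F266A +dox than in WT +dox (adjusted p = 0.0079), and its coactivator Mrtfa was 0.41 ± 0.08 higher (adjusted p = 0.00472).

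Among 45 measured immediate early genes outside the 10, calls went in both directions. In F266A +dox against WT +dox 18 were higher and 8 lower (40% and 17.8%, beside 15.9% and 12.5% of all tested genes), with a median of 0.13. On withdrawal of WT WDR5 11 were higher and 8 lower (24.4% and 17.8%, beside 16.1% and 15.4%, median 0.10), and on withdrawal of F266A 11 and 6 (24.4% and 13.3%, beside 8.94% and 10.6%, median 0.13). Myc, a transcription factor of growth, read 5.84 and 6.09 on WT +dox, 8.47 and 8.41 on WT -dox, 7.88 and 7.67 on F266A +dox and 8.97 and 8.84 on F266A -dox. It was lowest in WT +dox, rose by 2.47 ± 0.10 on withdrawal of WT WDR5 (adjusted p = 1.89e-06) and by 1.13 ± 0.10 on withdrawal of F266A (adjusted p = 0.000294), and the interaction was -1.35 ± 0.14 (adjusted p = 0.00188). The matricellular genes Ccn2 and Ccn1, both known targets of SRF and YAP, were 1.53 ± 0.09 (adjusted p = 6.18e-06) and 1.30 ± 0.09 (adjusted p = 1.3e-05) higher in F266A +dox than in WT +dox. Ptgs2, which encodes the inducible cyclooxygenase, read 4.34 to 4.55 in the WT arrays, 5.06 and 4.94 on F266A +dox and 6.30 and 6.16 on F266A -dox. Of the 4 groups, F266A -dox alone exceeded the minimum, so the difference from WT -dox of 1.79 ± 0.09 (adjusted p = 5.66e-06) started from signals not shown to exceed background. In the other direction, Tob1, an antiproliferative gene, fell by 0.92 on withdrawal of WT WDR5 (-0.92 ± 0.08, adjusted p = 8.05e-05), and Sik1, an AMPK-related kinase, fell by 0.80 on withdrawal of F266A (-0.80 ± 0.15, adjusted p = 0.00618).

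Genes that carry AP-1 sites or are widely used as AP-1 targets were more often higher than lower. Of 32 listed, 21 were measured. In F266A +dox against WT +dox 14 were higher and 2 lower, with a median of 0.43, and in F266A -dox against WT -dox 15 and 2, with a median of 0.57. The shares of all tested genes stand above, 15.9% and 12.5% for the first and 14% and 13.4% for the second, and several of these targets also mark mesenchymal cells. S100a6, a calcium-binding protein, read 8.54 and 8.68 on WT +dox, 9.33 and 9.39 on WT -dox, 10.83 and 10.97 on F266A +dox and 11.32 and 11.64 on F266A -dox. The 4 groups did not overlap and stood in the same order as the group means of Jun, and F266A +dox exceeded WT +dox by 2.29 ± 0.11 (adjusted p = 3.57e-06). Anxa1, an annexin, followed with 1.88 ± 0.14 (adjusted p = 2e-05) and Vim, the intermediate filament of mesenchymal cells, with 1.40 ± 0.10 (adjusted p = 2.09e-05). On withdrawal of WT WDR5 8 were higher and 4 lower (median 0.10), beside 16.1% and 15.4%, with Vim 1.48 ± 0.10 (adjusted p = 2.23e-05) and Ccnd1, a G1 cyclin, 0.83 ± 0.08 higher (adjusted p = 0.00011), and Cdkn1a, a cell cycle inhibitor, 0.78 lower (-0.78 ± 0.08, adjusted p = 0.00014). On withdrawal of F266A 11 were higher and 1 lower (median 0.26), beside 8.94% and 10.6% of all tested genes, with Vim 0.77 ± 0.10 (adjusted p = 0.00163) and S100a6 0.58 ± 0.11 higher (adjusted p = 0.00641). Cd44, a hyaluronan receptor, is among the higher ones in each of these comparisons but that on withdrawal of WT WDR5. It read 3.95 to 4.18 in the WT arrays, 4.84 and 4.63 on F266A +dox and 5.50 and 5.67 on F266A -dox, so that 1 array alone exceeded the minimum and its differences started from signals not shown to exceed background.

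Immediate early genes are known to respond to the handling of cells, as heat shock genes are, and the latter were set beside them. All 13 exceeded the minimum in every group, and their summed linear level was 34448 to 34484 on WT +dox, 36541 to 36844 on WT -dox, 37746 to 38335 on F266A +dox and 38875 to 39284 on F266A -dox. In F266A +dox against WT +dox 4 were higher and 2 lower (30.8% and 15.4%, beside 15.9% and 12.5% of all tested genes). On withdrawal of WT WDR5 5 were higher and 1 lower (38.5% and 7.69%, beside 16.1% and 15.4%), and on withdrawal of F266A 4 were higher (30.8%, beside 8.94%). Hspa1b, an inducible HSP70, rose by 0.55 ± 0.09 on withdrawal of WT WDR5 (adjusted p = 0.00215) and by 0.89 ± 0.09 on withdrawal of F266A (adjusted p = 0.000544). Hsph1, its nucleotide exchange factor, was 0.53 ± 0.08 higher in F266A +dox than in WT +dox (adjusted p = 0.00117). In the other direction, Hspb8 had the largest change of the list on withdrawal of WT WDR5 (-0.85 ± 0.10, adjusted p = 0.000412). It was also lower in F266A +dox than in WT +dox (-0.50 ± 0.10, adjusted p = 0.00663). The sum of the list followed the order of the group means of Jun, Junb, Fosl2, Ier3 and Atf3. Fos and Ier2 were not called between the induced lines or on withdrawal in either line. The part of handling in the results was not tested.

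**Figure D5:**
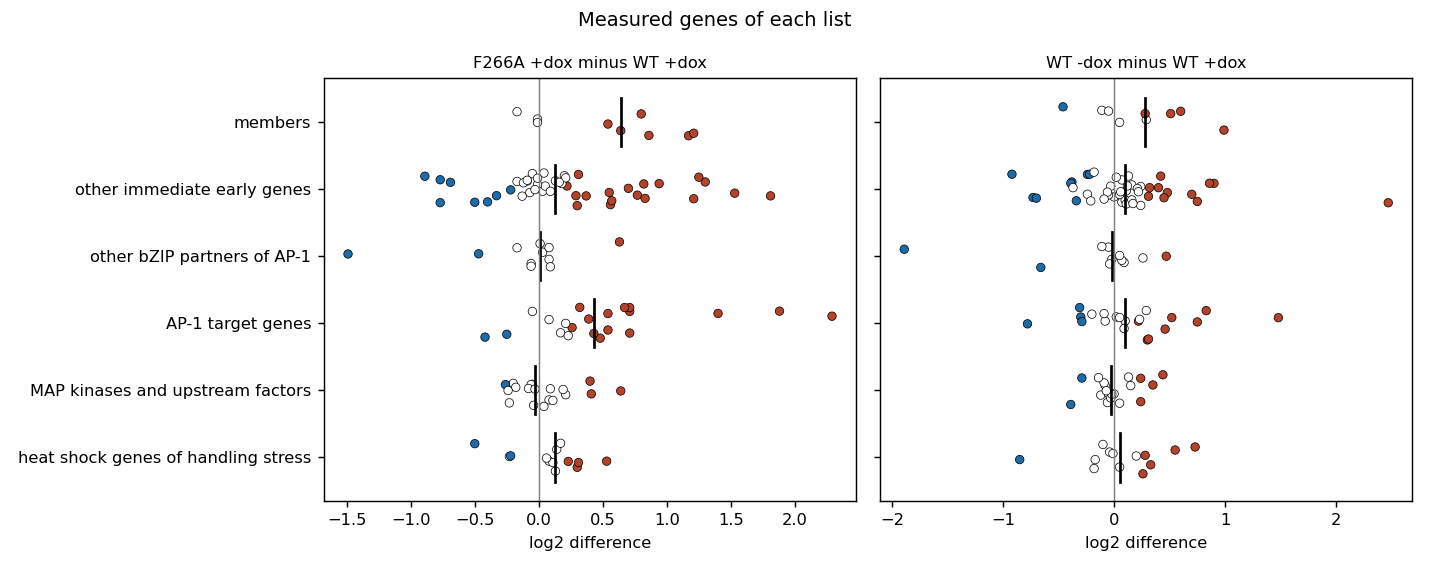
Log2 differences (horizontal axes) of each measured gene of 6 lists in F266A +dox against WT +dox (left) and on withdrawal of WT WDR5 (right), with filled red and blue points for genes called higher and lower, open points for genes not called and a vertical bar at the median of the list. The members and the AP-1 targets have medians of 0.64 and 0.43 on the left, and the bZIP partners and MAP kinases have medians of 0.01 and -0.03.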

How the data were processed

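The samples were total RNA of V6.5 mouse ESCs on Affymetrix mouse expression arrays, grouped by their labels. The authors summarised the arrays by RMA (justRMA in R 2.11.1, per the submitters' processing notes) and deposited log2 values, which were taken without further normalization. RMA equalises the arrays, so a shift of most transcripts would not be seen. Of the 45101 probe sets, 64 controls, 932 with several symbols and 9160 without a symbol were left out, since they define no single gene.

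After the study's methods, probe sets over 50 on the linear scale (5.64 in log2) in 1 array or more were kept and averaged by gene. Limma 3.58.1 under R 4.3.3 was fitted to all 8 arrays with a mean for each of 4 groups (residual degrees of freedom 4, prior 5.32). The study's SAM was not installed, and limma stood in for it. Tests were two-sided, with Benjamini-Hochberg adjustment over the 11940 genes of each comparison, and the threshold for a call was an adjusted p of 0.05. The interaction is the withdrawal effect (-dox minus +dox) in F266A cells less that in WT cells. Precision depends on the number of arrays (median SD between duplicates 0.0581, median SE of a difference 0.0802), and p-values measure the spread between duplicates of a line. The fit was tested on simulated data.

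Members and lists were chosen with earlier results of these data known. All members were named, and from each other list the called genes with the largest absolute change, up to 3 for each comparison (not all are printed). Alternatives were other minima (none, 100), single probe sets in place of averages, quantile normalization, median centring, fits to only the groups compared, a block for replicate number, another variance prior and omission of each array. Promoters came from RefSeq on GRCm38.p6 and were searched for exact motif matches.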

Additional observations from a re-analysis of the deposited data

Results flagged for a closer look

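The effect of withdrawal on Egr1 differed between the lines by the test of the interaction, -0.95 ± 0.12 (F266A line minus WT line, adjusted p = 0.00469 by limma), with every WT -dox array above every WT +dox array and every F266A -dox array below every F266A +dox array. For Ier3 the interaction was -0.83 ± 0.15 (adjusted p = 0.0173), with both WT -dox arrays above both WT +dox arrays and overlapping groups in the F266A line. Of all tested genes, 67.5% had arrays wholly apart on withdrawal in WT cells and 59.9% in F266A cells, so such separation was common. Only a single line of each kind was described, so that these differences compare the particular lines.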

How the results depend on the processing

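Of 1020 values of members recomputed under an alternative, 974 kept their side of the threshold, 35 lost a call and 11 gained one. None reversed a called direction, but 12 of the 974 changed sign while called neither way. The number of members called on withdrawal of F266A, 4 as reported, was 2 to 4 when an array was left out, and that for the interaction, 2 as reported, was 1 to 2. Whether the replicate numbers pair samples across groups is not given by the labels. Deviations of same-numbered arrays correlated at 0.13 and 0.16 within a line and at -0.18 to -0.11 between lines, which cannot decide it. With the replicate number as a block the counts of members called stayed at 6, 5, 4, 7, 4, 6 and 2 in the 6 comparisons and the interaction. Calls lost on leaving out an array stand beside the genes in the report. Beyond those, Jund was called lower in F266A +dox than in WT +dox after quantile normalization (-0.20, adjusted p = 0.0453) and with a trended and robust variance prior (adjusted p = 0.0427), and its excess in F266A +dox over WT -dox was 0.13 (adjusted p = 0.33) without the expression minimum, where the dim probe set enters the average. Fos on withdrawal of F266A was called after quantile normalization (0.22, adjusted p = 0.0439), and Ier3 there without F266A -dox replicate 1 (0.33, adjusted p = 0.0392). In F266A -dox against WT +dox, Fos was called higher without F266A -dox replicate 1 (0.23, adjusted p = 0.0475), with a minimum of 100 (adjusted p = 0.0493) and after quantile normalization (adjusted p = 0.0397), and Egr1 without WT +dox replicate 2 (0.29, adjusted p = 0.0392) and with the other variance prior (adjusted p = 0.0245). That prior also called the interaction of Jund (adjusted p = 0.0271) and ended the rise of Fosl2 in WT cells (adjusted p = 0.0756), and a fit to the compared groups alone ended the excess of Ier3 in F266A -dox over WT -dox (adjusted p = 0.0613). For Fosl2 on 1422931_at alone the calls were lost in 5 of the 6 comparisons, F266A -dox against WT +dox (0.32, adjusted p = 0.0098) being the exception, when all probe sets were fitted singly. When each gene was represented by its brightest probe set, which for Fosl2 is the same one, the difference between the uninduced lines was called as well (0.25, adjusted p = 0.0369, against 0.0535 in the fit of single probe sets). With 2 arrays a group, small differences lie near the limit of what could be called.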

Other observations

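Among 1034 tested genes outside the 10 whose arrays spanned at least 1 log2 unit, those whose pattern over the 8 arrays was most like that of Jun were Grip1 (Pearson's r of 0.993), Ets1 (0.99) and Vgll3 (0.986). Ets1, an ETS transcription factor, read 5.03 and 5.32 on WT +dox, 5.41 and 5.71 on WT -dox, 7.14 and 7.02 on F266A +dox and 7.27 and 7.10 on F266A -dox. As for Jun, every F266A array lay above every WT array. Nearest to Fos were Pdpn (0.939), Pdlim3 (0.903) and Vamp8 (0.898), and Pdpn, a membrane glycoprotein, read 9.92 and 9.86 on WT +dox, 9.51 and 9.64 on WT -dox, 10.19 and 10.11 on F266A +dox and 10.61 and 10.80 on F266A -dox. Nearest to Egr1 were Cdkl2 (0.942), Porcn (0.918) and Ttc30a1 (0.875), and Porcn, the enzyme that acylates WNT proteins, read 7.66 and 7.65 on WT +dox, 8.81 in both WT -dox arrays, 8.52 and 8.47 on F266A +dox and 8.29 and 8.22 on F266A -dox. Porcn was lowest in WT +dox, as Egr1 was, and highest in WT -dox, whereas WT -dox and F266A +dox overlapped for Egr1. These r values describe 8 arrays that share 4 groups.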
